A study of Mus musculus with 10 samples.

Results

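The 10 genes described here belong to the core machinery of autophagy: Sqstm1, Map1lc3a, Map1lc3b, Gabarap, Gabarapl1, Gabarapl2, Ulk1, Becn1, Atg5 and Tfeb. They were taken by gene symbol from a table of 24541 symbols, without use of their values. All 10 had a row and all 10 passed the filter on low counts, which kept 15123 genes. The levels come from RNA sequencing of kidney cells selected with magnetic beads for F4/80, the product of Adgre1 and a standard surface marker of macrophages in the mouse. The compared groups were 4 heterozygous mutant mice (Umod C105F/+), which carry a cysteine-to-phenylalanine change in uromodulin, a urinary protein of the thick ascending limb, and 6 wild-type littermates (+/+), all on a C57BL/6 background and 12 to 16 weeks old. The mutation was made by injecting Cas9, a guide and a donor fragment into C57BL/6J embryos. It is carried by every cell of the body, and the libraries hold whatever cells the beads retained. The series asked whether gene expression of kidney macrophages differs in mice with aggregating uromodulin, and the autophagy genes are read here within that comparison.

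Autophagy encloses cytoplasm, damaged organelles or protein aggregates in a double membrane that fuses with lysosomes. The ULK1 kinase starts the process, and a lipid kinase complex around Beclin 1 marks the membrane. A conjugation machinery that includes ATG5 attaches the ubiquitin-like ATG8 proteins, which are the LC3 and GABARAP families, to it. Receptors such as p62, the product of Sqstm1, link ubiquitinated cargo to the ATG8 proteins, and the transcription factor TFEB activates genes of autophagy and lysosomes. In kidney tubules autophagy removes damaged mitochondria and protein aggregates, and in macrophages it also takes part in handling ingested material.

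In the 250 bases upstream of the annotated starts, the sequences of 3 members are given: Gabarapl1 and Sqstm1, which had the lowest and the highest estimate of the mutant-to-wild-type difference, and Atg5, the single member with the E-box CACGTG in its window. The sequences are from RefSeq on GRCm38.p6, in lower case and read 5′ to 3′ on the strand of the gene, at chr6:129532942-129533191 on the plus strand for Gabarapl1, chr11:50210821-50211070 on the minus strand for Sqstm1 and chr10:44268089-44268338 on the plus strand for Atg5. Capitals mark the E-box.

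Gabarapl1: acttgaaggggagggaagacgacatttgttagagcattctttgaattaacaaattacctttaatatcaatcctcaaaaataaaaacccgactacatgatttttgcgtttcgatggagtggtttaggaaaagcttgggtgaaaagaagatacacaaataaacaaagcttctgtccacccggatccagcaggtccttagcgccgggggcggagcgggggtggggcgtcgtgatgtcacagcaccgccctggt

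Sqstm1: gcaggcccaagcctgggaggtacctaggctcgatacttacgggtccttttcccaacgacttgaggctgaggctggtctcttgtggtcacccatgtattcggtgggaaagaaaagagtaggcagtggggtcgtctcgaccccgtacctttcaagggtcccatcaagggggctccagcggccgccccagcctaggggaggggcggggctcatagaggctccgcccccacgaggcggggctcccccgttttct

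Atg5: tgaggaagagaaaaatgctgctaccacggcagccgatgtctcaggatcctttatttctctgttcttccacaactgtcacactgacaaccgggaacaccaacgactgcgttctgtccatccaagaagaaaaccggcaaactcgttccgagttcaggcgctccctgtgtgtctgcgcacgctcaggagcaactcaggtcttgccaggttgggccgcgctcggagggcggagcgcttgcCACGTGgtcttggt

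Windows from 250 bases before to 50 bases after the start were held for 8 of the 10 members, as 10 windows, since Tfeb had 3. Map1lc3a and Becn1 had none. Searched on both strands, the E-box CACGTG was in 1 of the 10 windows, that of Atg5, where its first base lies 14 bases before the start (position -14). It was in 7.15% of the 32817 windows of all genes in the RefSeq table. The CLEAR palindrome, a longer element that contains the E-box and is bound by TFEB, was in 0 of 10 member windows and in 0.326% of all windows. The antioxidant response element core TGACNNNGC was in the Map1lc3b window, at position 5 after the start, and in 12.4% of all windows. The composite core TGATGCAA, bound by ATF4, was in 0 of 10 member windows and in 0.896% of all windows. These matches describe letters in the windows and say nothing of binding.

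The level of macrophage markers varied widely between these libraries. Adgre1 had 58.2, 58.6, 229 and 819 CPM (counts scaled by TMM to a common library size) in mutants, against a lowest value of 13.96, a median of 82.8 and a highest of 406 CPM in wild types, and it ranked 946 of 15123 genes by mean level. The 15 resident macrophage markers summed to 1979 to 18236 CPM in mutants and 1162 to 7465 CPM in wild types, while the 12 proximal tubule markers summed to 41785 to 86049 CPM in mutants and 44581 to 100336 CPM in wild types. Markers of both cell types were thus present in every library. Sums over different genes do not give the share of RNA from each cell type, which was not estimated. The 10 markers of the thick ascending limb and distal convoluted tubule summed to 3476 to 10008 CPM in mutants and 11654 to 25159 CPM in wild types. Umod, the mutated gene and one of these markers, averaged less in mutants, with 1004 to 4331 CPM against 5784 to 15138 CPM in wild types. Erythroid markers, which stand for residual blood, summed to 95.2 to 511 CPM in mutants and 272 to 3164 CPM in wild types, and their part in the results was not tested. Total estimated counts lay between 45380415 and 73643200 per library. In such mixed samples, fewer cells of a type and less RNA per cell cannot be told apart.

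The GABARAP family and p62 led the 10 genes in level, and the kinase that starts autophagy was lowest. Levels between genes were compared per transcript length, as FPKM summed over the transcripts of a gene, with no test. In mutants the median FPKM was 442 for Gabarapl1, 444 for Gabarap, 366 for Sqstm1, 137 for Gabarapl2, 117 for Map1lc3b and 109 for Map1lc3a. In wild types the median FPKM was 635 for Gabarapl1, 420 for Gabarap, 314 for Sqstm1, 132 for Gabarapl2, 125 for Map1lc3b and 109 for Map1lc3a. The other 4 genes followed well below the ATG8 family. Becn1, encoding Beclin 1 of the lipid kinase complex, had a median of 52.3 FPKM in mutants and 52.3 in wild types. Atg5 followed with 21.3 FPKM in mutants and 19.9 in wild types, Tfeb with 11.5 in mutants and 9.92 in wild types, and Ulk1 with 5.38 in mutants and 6.61 in wild types. In mutants, the ranges of neighbours in this order overlapped for Gabarap and Gabarapl1, Gabarapl1 and Sqstm1, Gabarapl2 and Map1lc3b, and Map1lc3b and Map1lc3a. In wild types they overlapped for Gabarapl2 and Map1lc3b and for Map1lc3b and Map1lc3a, and all other neighbours were separate.

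**Figure D1:**
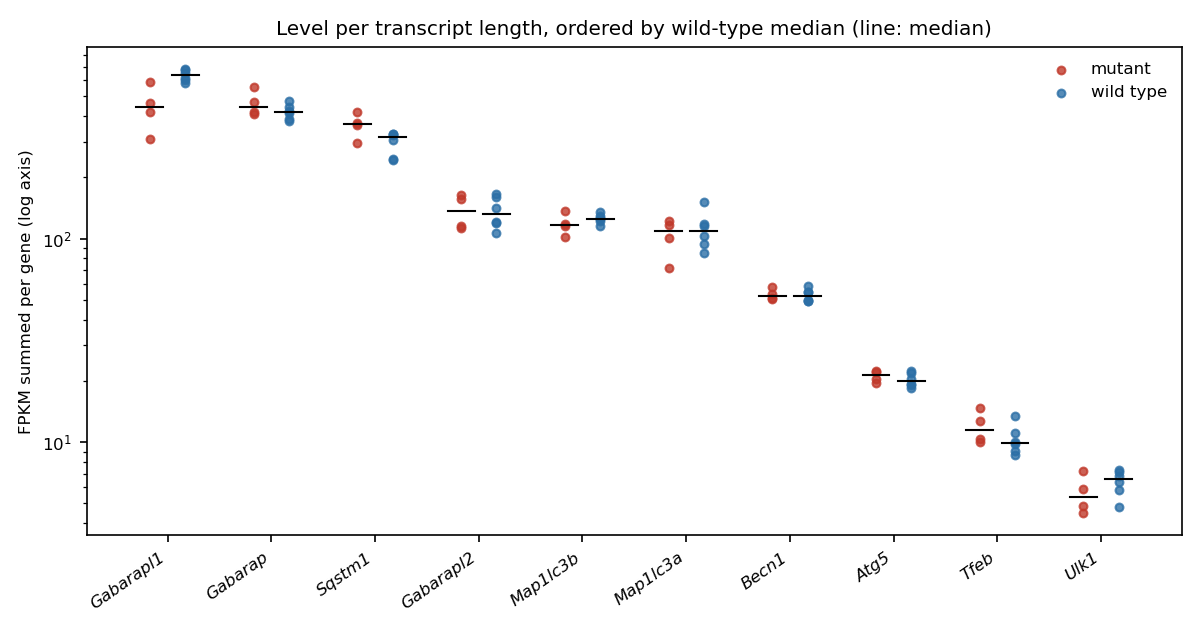
FPKM summed per gene (log axis) for each of the 10 genes, in order of the wild-type median, with 4 mutant libraries left and 6 wild-type libraries right and a line at each median. Gabarapl1 has a median of 442 FPKM in mutants, beside 444 FPKM for Gabarap with overlapping ranges, and a median of 635 FPKM in wild types, above the range of Gabarap.

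None of the 10 genes passed the test between mutants and wild types. With edgeR's quasi-likelihood test and Benjamini-Hochberg adjustment over 15123 genes, 0 of 10 were higher and 0 of 10 were lower in mutants at an adjusted p under 0.05, where 0.198% of all genes were called, 0.179% higher and 0.0198% lower. At an unadjusted p under 0.05 the count was 1 of 10, Gabarapl1, against 5.9% of all genes, and DESeq2, which called 0.854% of its genes, and limma also called 0 members. Over the members the median log2 fold change was 0.01, as it was over all tested genes, and 6 of 10 estimates were above 0. The 2 groups overlapped in the CPM of all 10 genes, where 1.96% of tested genes had groups that did not overlap.

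**Figure D2:**
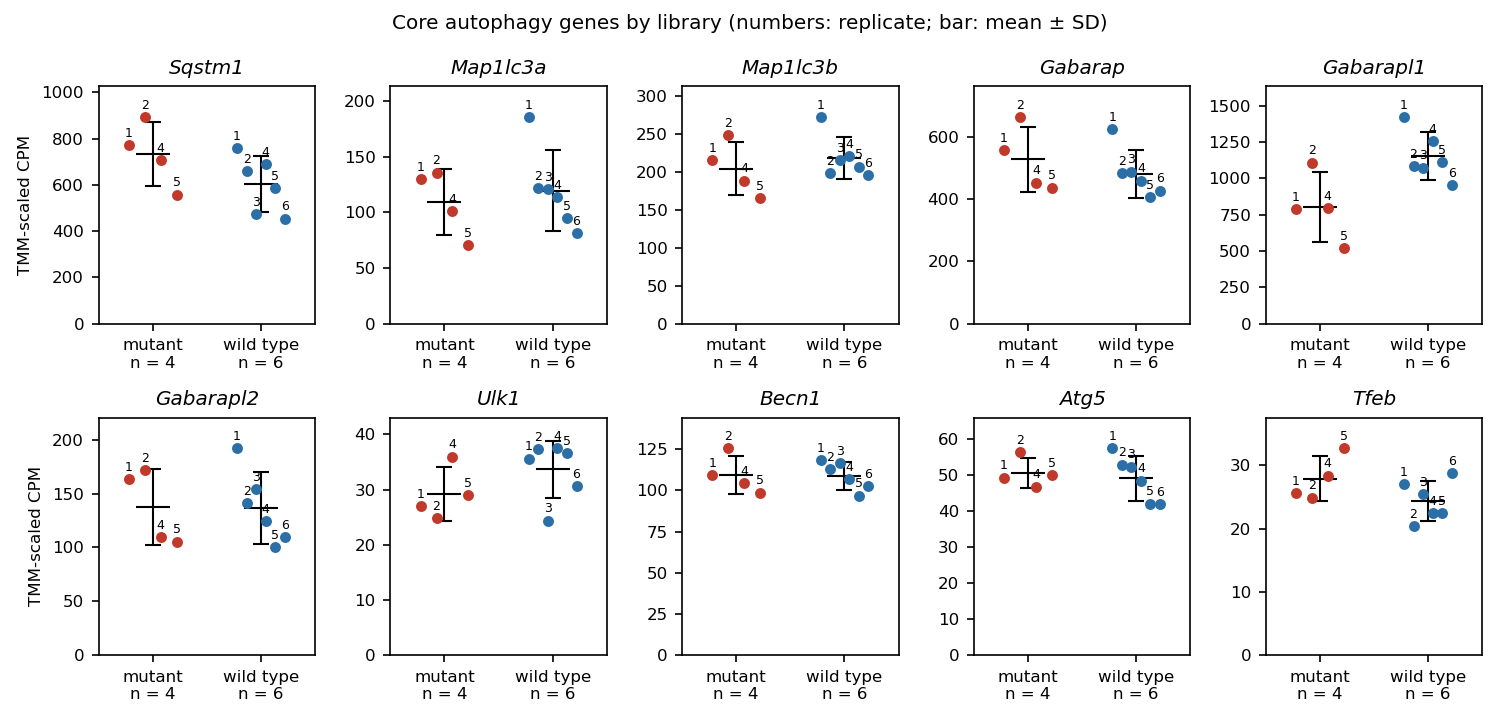
TMM-scaled CPM of each gene in the 4 mutant libraries (left) and the 6 wild-type libraries (right), with replicate numbers beside the points and mean ± SD as bars. The groups overlap in every panel, and the mutant points of Gabarapl1, at 517 to 1107 CPM, lie mostly below the wild-type points, at 954 to 1421 CPM.

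Sqstm1 encodes p62, which binds ubiquitinated cargo and is itself degraded by autophagy. It had 772, 893, 707 and 558 CPM in mutants, against a lowest value of 453, a median of 623 and a highest of 759 CPM in wild types. A total of 3 of 4 mutants lay above the wild-type median, and mutant replicates 1 and 2 lay above all wild types. Sqstm1 averaged 733 ± 140 CPM over the 4 mutants and 603 ± 122 CPM over the 6 wild types (mean ± SD, here and for the other genes). The log2 fold change was 0.28, with a 95% interval from -0.13 to 0.69 and an adjusted p of 0.959 by edgeR. The exact two-sided permutation test over the 210 assignments of libraries, whose smallest possible p is 0.00476, gave p = 0.176.

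Gabarapl1, an ATG8 protein of the GABARAP family, had the largest estimate among the 10. It had 787, 1107, 794 and 517 CPM in mutants, against a lowest value of 954, a median of 1098 and a highest of 1421 CPM in wild types. The mutant replicates 1, 4 and 5 lay below all wild types, while replicate 2 lay just above the wild-type median. Gabarapl1 averaged 801 ± 241 CPM over the 4 mutants and 1150 ± 165 CPM over the 6 wild types, a fold of 0.697 with a 95% interval from 0.510 to 0.952. The log2 fold change was -0.52 with an SE of 0.204, an unadjusted p of 0.0269 and an adjusted p of 0.782 by edgeR, and the exact permutation test gave p = 0.0190. It therefore did not pass the threshold over all genes. The summed CPM of the thick ascending limb and distal convoluted tubule markers was lower in all mutants than in wild types. Of these 10 markers, however, 1 was called and 2 had estimates above 0. Their score, the mean of their log2 CPM centred per gene, overlapped, at -1.05 to 0.246 in mutants and -0.040 to 0.590 in wild types. Its mean difference, mutants minus wild types, was -0.79 (exact permutation p = 0.0190). With this score as a covariate, added after seeing the data, the log2 fold change of Gabarapl1 was -0.18 (adjusted p = 0.660 by edgeR). In the same fit it was 0.50 for Gabarap (adjusted p = 0.137 by edgeR) and 0.55 for Gabarapl2 (adjusted p = 0.147), so the estimates of all 3 genes moved upward. Those of Ulk1 and Tfeb moved downward, to -0.48 and 0.07, and those of the remaining members upward. The ascending limb score includes Umod itself and was lower on average in mutants, so as a covariate it can take up part of the genotype difference. Macrophage and proximal tubule scores, made the same way, were the planned covariates. With them the log2 fold change of Gabarapl1 was -0.38 (adjusted p = 0.311 by edgeR) and -0.40 (adjusted p = 0.980), respectively. Whether cell content accounts for the estimate of Gabarapl1 was not tested.

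Without a covariate, the other GABARAP genes had estimates nearer to 0. Gabarap had 558, 664, 453 and 436 CPM in mutants, against a lowest value of 406, a median of 471 and a highest of 624.7 CPM in wild types. Its log2 fold change was 0.13, with a 95% interval from -0.23 to 0.49. Gabarapl2, also known as GATE-16, had 164, 172, 109 and 105.4 CPM in mutants, against a lowest value of 100.2, a median of 132 and a highest of 192 CPM in wild types. Its log2 fold change was 0.01, with an interval from -0.46 to 0.47. Whether Gabarapl1 differs from these genes in its response was not tested.

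Set against its relatives within each library, Gabarapl1 made up less of the ATG8 transcripts in mutants. This measure was chosen after the values were seen and is given without a test. Of the summed FPKM of the 5 ATG8 genes, Gabarapl1 took 32.7%, 37.5%, 38.3% and 30.6% in mutants, against a lowest share of 42.0% and a highest of 48.1% in wild types. The shares averaged 34.8% ± 3.70 in mutants (SD, n = 4) and 44.6% ± 2.70 in wild types (SD, n = 6), and the groups did not overlap. The ratio of Gabarapl1 to Gabarap FPKM was 0.893, 1.06, 1.11 and 0.750 in mutants and 1.39 to 1.73 in wild types, again without overlap. Both measures contain Gabarapl1, the member with the lowest estimate. How often such ratios separate the groups for other genes was not counted. A ratio within a library shows unequal levels and not which of the genes differs.

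The LC3 genes, whose products are the usual markers of autophagosomes, had estimates near 0. Map1lc3a had 130, 136, 101 and 70.8 CPM in mutants, against a lowest value of 81.6, a median of 117 and a highest of 186 CPM in wild types. Its log2 fold change was -0.13, with a 95% interval from -0.66 to 0.40, the widest of the 10. Map1lc3b had 216, 248, 189 and 166 CPM in mutants, against a lowest value of 196, a median of 212 and a highest of 273 CPM in wild types. Its log2 fold change was -0.10, with an interval from -0.41 to 0.22. For both genes 2 of 4 mutants lay above the wild-type median.

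Among the initiation and conjugation genes, Becn1 was the steadiest of the 10. It had 109, 125, 104 and 98.5 CPM in mutants, against a lowest value of 96.9, a median of 110 and a highest of 118 CPM in wild types. The highest library was only 1.29 times the lowest, and the log2 fold change was 0.01, with a 95% interval from -0.22 to 0.23. Atg5, part of the conjugating complex, had 49.2, 56.4, 46.7 and 49.99 CPM in mutants, against a lowest value of 41.8, a median of 50.4 and a highest of 57.4 CPM in wild types, with a log2 fold change of 0.04 and an interval from -0.21 to 0.30. Ulk1 had 27.0, 24.8, 36.0 and 29.0 CPM in mutants, against a lowest value of 24.4, a median of 36.1 and a highest of 37.5 CPM in wild types. All 4 mutants lay below the wild-type median of Ulk1, and the log2 fold change was -0.21, with an interval from -0.54 to 0.13 and an exact permutation p of 0.233.

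Tfeb, the transcription factor, had 25.6, 24.9, 28.4 and 32.7 CPM in mutants, against a lowest value of 20.4, a median of 24.0 and a highest of 28.8 CPM in wild types. All 4 mutants lay above the wild-type median, and replicate 5 lay above every wild type. The log2 fold change was 0.19, with a 95% interval from -0.10 to 0.48, an adjusted p of 0.959 by edgeR and an exact permutation p of 0.148.

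**Figure D3:**
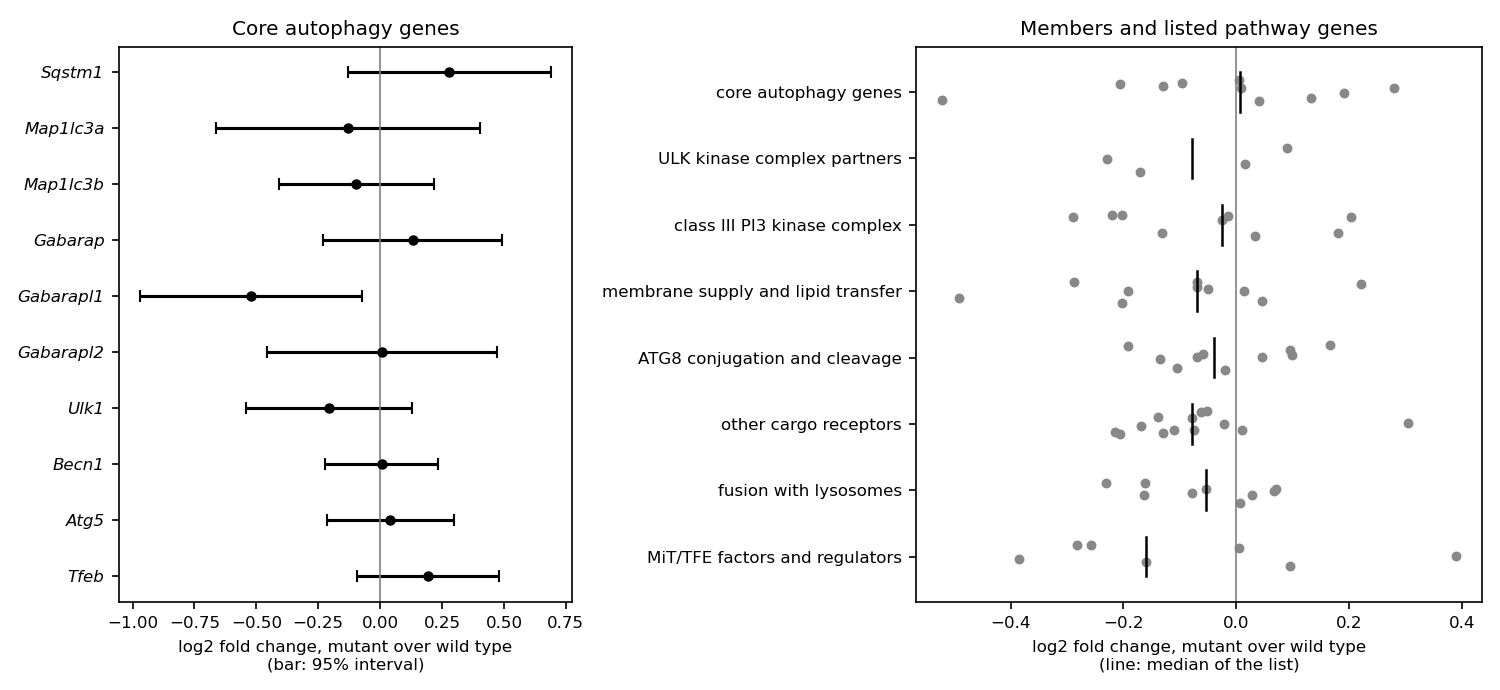
Log2 fold change of mutants over wild types for each of the 10 genes with its 95% interval (left), and for the members and each list of further autophagy genes with a line at the list's median (right). The interval of Gabarapl1 runs from -0.97 to -0.07, those of the other 9 genes include 0, and no gene in either panel passed the test.

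The rest of the pathway also held no call. Of 63 further autophagy genes in 8 lists, 62 were tested, and Map1lc3c had no row under that symbol. In mutants 0 of 62 were higher and 0 of 62 were lower by the adjusted test, 3 of 62 had an unadjusted p under 0.05, where 5.9% of all genes did, and 21 of 62 estimates were above 0, against 7744 of 15123 over all genes. The 3 are thus no more than the share over all genes gives. Their median log2 fold change was -0.07, against 0.01 over all tested genes. The 3 were Atg13, the adaptor of the ULK1 kinase, Wipi1, a phosphoinositide-binding protein of the forming membrane, and Fnip2, a partner of folliculin in nutrient sensing. Atg13 averaged 34.2 ± 2.73 CPM in mutants and 40.1 ± 2.92 CPM in wild types, a log2 fold change of -0.23 with an adjusted p of 0.815 by edgeR. Wipi1 averaged 9.44 ± 1.98 CPM in mutants and 13.3 ± 3.17 CPM in wild types, a log2 fold change of -0.49 with an adjusted p of 0.835 by edgeR. Fnip2 averaged 30.8 ± 6.58 CPM in mutants and 40.3 ± 3.65 CPM in wild types, a log2 fold change of -0.38 with an adjusted p of 0.701 by edgeR (SD, n = 4 and 6 throughout).

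By list, the median log2 fold change was -0.08 for the 4 partners of ULK1, -0.02 for the 9 genes of the lipid kinase complex, -0.07 for the 10 genes of membrane supply, -0.04 for the 10 conjugation and cleavage genes, -0.08 for the 13 other cargo receptors, -0.05 for the 9 genes of fusion with lysosomes and -0.16 for the 7 relatives and regulators of TFEB. The genes with the smallest p in each list, beside those already given, were as follows. In the ULK1 and lipid kinase lists the log2 fold change was -0.17 for Atg101, a stabiliser of ATG13, -0.29 for Atg14, which directs the lipid kinase to autophagy, and 0.20 for Nrbf2, another subunit. For membrane supply and conjugation it was -0.29 for Wipi2, 0.17 for Atg3, the conjugating enzyme for ATG8 proteins, and -0.14 for Atg4d, a protease that trims them. For receptors, fusion and transcription it was -0.21 for Nbr1 and -0.22 for Calcoco1, both cargo receptors, -0.23 for Epg5 and -0.16 for Vps39, both tethering factors, and 0.39 for Tfe3, a relative of TFEB. None of these had an adjusted p under 0.05 by edgeR.

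Several members varied with the macrophage marker score of a library. The score of a library is the mean log2 CPM of the 15 macrophage markers, centred per gene. It was -0.66, -0.68, 1.04 and 2.82 in mutant replicates 1, 2, 4 and 5. In wild-type replicates 1 to 6 it was -2.001, -1.54, -0.99, -0.09, 0.57 and 1.54, and the groups overlapped (exact permutation p = 0.310). The score thus rose with the replicate number in wild types and was highest in replicates 4 and 5 of the mutants. An effect that follows these numbers cannot be told apart from the score. In a model with score and genotype, 6 of 10 members had a negative slope on the score at an adjusted p under 0.05 by edgeR and 0 of 10 had a positive one, where 35.1% of all tested genes were called in either direction, 15.8% with a negative slope and 19.3% with a positive one. A negative slope means a lower CPM in libraries with a higher macrophage marker score, and CPM is a share of all RNA.

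Map1lc3a had the steepest slope, with a log2 change of -0.27 per unit of score (adjusted p = 0.000238 by edgeR), followed by Gabarapl2 with -0.22 (adjusted p = 0.00172). Both stayed past the threshold when any 1 of the 10 libraries was left out. Gabarapl1 had -0.17, Sqstm1 -0.15, Gabarap -0.14 and Map1lc3b -0.11 per unit, with adjusted p between 0.0157 and 0.0387 by edgeR. These 4 calls rested on single libraries: Sqstm1 was lost without mutant replicate 2, mutant replicate 5, wild-type replicate 1 or wild-type replicate 6, and Gabarapl1 without the same 4. Gabarap was lost without mutant replicate 2, mutant replicate 5 or wild-type replicate 1, and Map1lc3b in 7 of the 10 omissions. The count of members called was accordingly 2 without mutant replicate 2, 3 without mutant replicate 5, 2 without wild-type replicate 1 and 3 without wild-type replicate 6.

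The remaining genes did not follow the score at this threshold. Becn1 had a slope of -0.07 (adjusted p = 0.0697 by edgeR) and Atg5 of -0.08 (adjusted p = 0.0726), while Ulk1 had 0.02 (adjusted p = 0.775) and Tfeb 0.07 (adjusted p = 0.214). Within the 6 wild types alone only Map1lc3a was called, with a slope of -0.28 (adjusted p = 0.0256 by edgeR), where 10.2% of genes were called in either direction and 2.56% with a negative slope. There Gabarapl2 had -0.22 (adjusted p = 0.0531), the same slope as over all libraries. The markers of the thick ascending limb and distal tubule also fell along the score, 6 of 10 with a called negative slope and a median of -0.28. Of the proximal tubule markers 1 of 12 had a called negative slope, with a median of -0.07. Fibroblast and pericyte markers rose, 5 of 8 with a called positive slope and a median of 0.61. Endothelium markers had 4 of 8 called positive, with a median of 0.18. The part of these cell types in the slopes of the members was not tested.

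**Figure D4:**
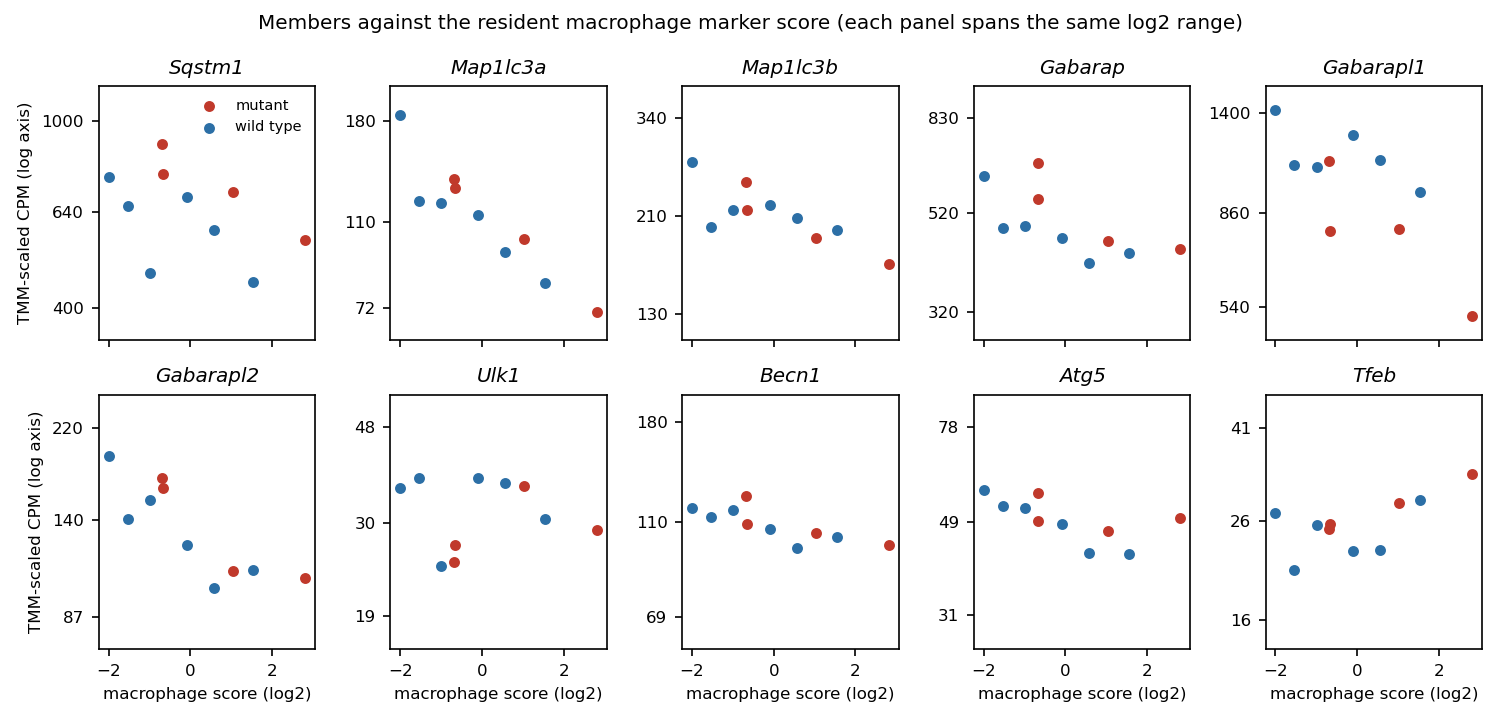
TMM-scaled CPM of each gene (log axis, every panel spanning the same log2 range) against the macrophage marker score in 4 mutant and 6 wild-type libraries. Map1lc3a and Gabarapl2 decline across the score in both groups, and Ulk1 and Tfeb do not.

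Among the listed pathway genes 11 of 62 slopes were called positive and 10 of 62 negative, with a median of 0.02. These counts are near the shares over all genes, 19.3% positive and 15.8% negative, and are no result about the pathway. Positive slopes included Wdfy3, a large adaptor for aggregates, at 0.34 (adjusted p = 0.00573 by edgeR), Tfe3 at 0.26 (adjusted p = 0.000877) and Epg5 at 0.15 (adjusted p = 0.0455). Negative slopes included Vamp8, a membrane fusion protein, at -0.29 (adjusted p = 0.000689 by edgeR), the mitochondrial receptor Bnip3 at -0.26 (adjusted p = 0.00016) and Atg4d at -0.17 (adjusted p = 0.00221). Wdfy3, Vamp8 and Bnip3 were named after their values were seen.

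**Figure D5:**
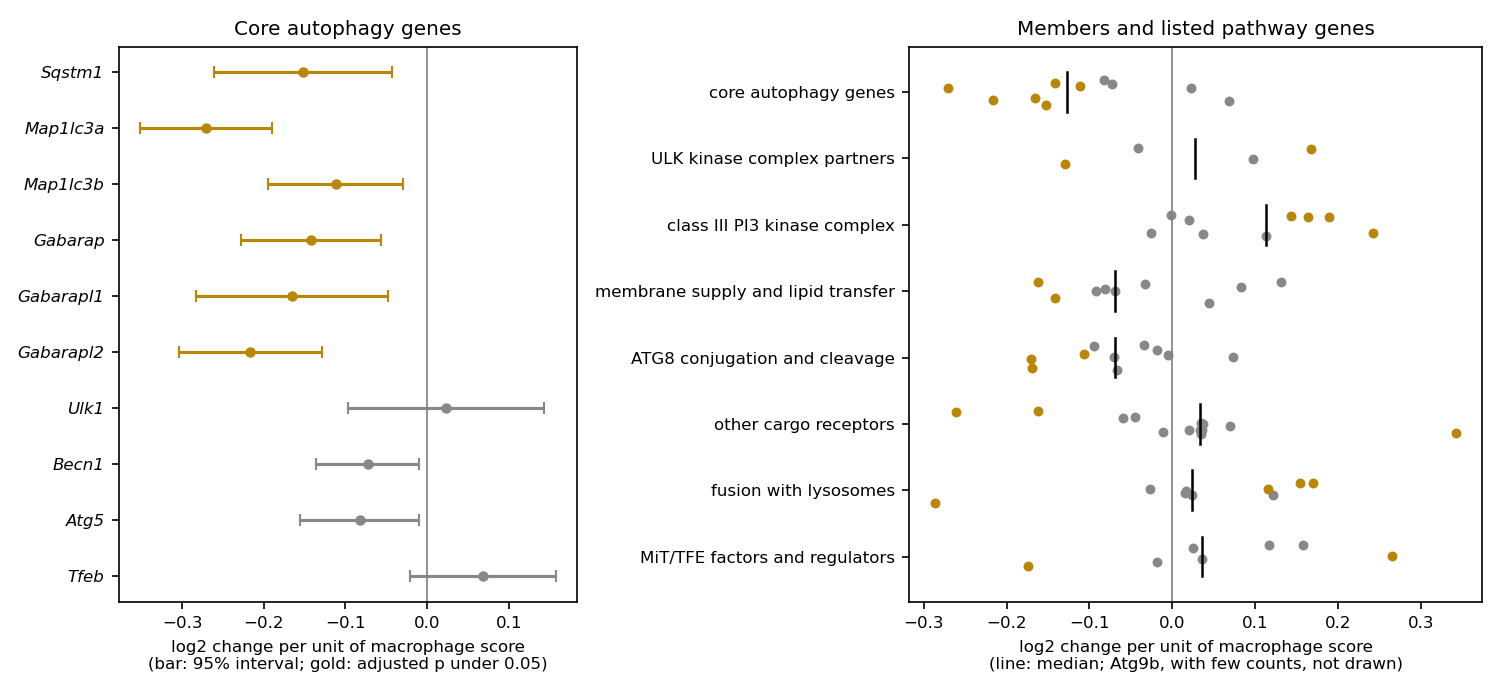
Log2 change per unit of macrophage score for each of the 10 genes with its 95% interval (left) and for the members and the pathway lists (right), in gold where the adjusted p is under 0.05. The 6 called members all lie below 0, and the called pathway genes that are drawn lie on both sides, between -0.29 for Vamp8 and 0.34 for Wdfy3 (Atg9b, which has few counts and a called slope of 1.61, is not drawn).

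The spread over the 10 libraries differed between the members. The log2 CPM range between the highest and the lowest library had a median of 0.71 over the members and of 1.13 over all tested genes, with 0.37 for Becn1, and with 1.39 for Map1lc3a and 1.46 for Gabarapl1, both above the median of all genes. Gabarap and Gabarapl2 were the pair that varied most alike, with a Pearson correlation of log2 CPM of 0.92 over 10 libraries, and Gabarapl1 and Tfeb the least, with -0.66. These correlations are descriptions over libraries that share the macrophage and tubule content just given. The tested gene most like each member was Mars for Sqstm1 (r = 0.97), H2-Ke6 for Map1lc3a (r = 0.99), 0610009L18Rik for Map1lc3b (r = 0.98) and Atp6v0d1, a subunit of the lysosomal proton pump, for Gabarap (r = 0.99). It was Enpp1 for Gabarapl1 (r = 0.96), Mettl9 for Gabarapl2 (r = 0.998), Ttc7b for Ulk1 (r = 0.96), Rexo2 for Becn1 (r = 0.95), Pole4 for Atg5 (r = 0.97) and Phc2 for Tfeb (r = 0.93).

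The table resolves transcripts, and 2 members had a second transcript with a mean share of 5% to 95% of the gene's counts. For Sqstm1, transcript variant 1, of 2030 bases, took 71.2% ± 1.17 of the estimated counts in mutants (SD, n = 4) and 69.6% ± 3.26 in wild types (SD, n = 6), and the exact permutation test gave p = 0.376. For Ulk1, transcript variant 1, of 5214 bases, took 0%, 1.47%, 30.3% and 8.92% in mutants, against a lowest share of 0% and a highest of 31.9% in wild types (exact permutation p = 0.252). The other Ulk1 transcript is 5196 bases long, and the share varied as widely within each group as between them. The rule by which reads were divided between transcripts, or between near-identical copies of a gene, was not stated in the sources used, so such shares are less certain. On mm10, Gabarapl1 (chromosome 6, 129533192 to 129542331) shares 93 bases of its locus with 1700101I11Rik, which had 1357 counts in all, and Becn1 (chromosome 11, 101288267 to 101302267) shares 435 bases with Cntd1, which had 562. Sqstm1 lies on chromosome 11 (50200152 to 50210820).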

How the data were processed

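RNA sequencing of F4/80-selected kidney cells covered 4 mutant and 6 wild-type libraries, each from 1 mouse by the labels. Per the labels' protocols, kidneys were digested for 30 minutes and filtered through a 40 µm mesh, and strand-specific libraries were made from 75 ng of RNA after oligo-dT selection.

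The authors deposited estimated counts and FPKM per RefSeq transcript. Build mm10 and the tools StringTie 1.3.4d, HISAT2 2.1.0, Trimmomatic 0.38, DESeq2 and Bowtie2 2.3.4.1 are listed in the submitters' processing notes. Their order and roles, and whether counting used strand, were not stated there. Estimated counts, as deposited, are whole and unscaled, and equalled FPKM times length times 1 constant per library for 100% of transcripts within 0.5% or 1 read. The deposited FPKM values, scaled by the authors for length and depth, were used for levels between genes only.

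Estimated counts were summed per symbol, filtered with filterByExpr, scaled by TMM and tested with the quasi-likelihood test of edgeR 4.0.16 (R 4.3.3, robust, no covariate), adjusted over 15123 genes and called at 0.05. Intervals are at 95%. For log2 CPM the prior count was 2. The slope on the macrophage score was tested with genotype in the model. The test was checked on simulated data, and the outcome of that check is not given here. Atf4, looked at as a check, was 2.00-fold higher in mutants, with groups that did not overlap. Its adjusted p was 0.0575 by edgeR, so a difference of that size can miss the threshold. No 2 libraries of a group were duplicates (smallest chi-square per gene 73.0).

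The members, marker lists and pathway lists were chosen with earlier results of these data known. Named pathway genes are the 2 of each list with the smallest p and every called gene, of which there were 0. Per member, 3 genes with the highest Pearson correlation were found, and the first is named. Alternatives were other scalings, no filter, DESeq2 1.42.0, limma 3.58.1, single transcripts, marker scores as covariates, a replicate block and leaving out each library.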

Additional observations from a re-analysis of the deposited data

Results flagged for a closer look

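Of 28 groups of values examined, 2 had a library apart from the others of its group by Dixon's test at 95%, where chance gives about 1 in 20. Both were wild-type replicate 1. Its Map1lc3b level was 273 CPM, against 196 to 221 CPM in the other 5 wild types. Its Gabarap level was 624.7 CPM, against 406 to 488 CPM in the other 5. That library also had the lowest macrophage score, -2.001, and the lowest Adgre1, 13.96 CPM. Without it, 0 of 10 members were called between mutants and wild types.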

How the results depend on the processing

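Under every alternative run, 0 of 10 members and 0 of 62 pathway genes were called between mutants and wild types. The number of genes called was 30, and became 143 with DESeq2, 50 with the macrophage score and 56 with the thick ascending limb score as covariate, 13 for single transcripts, 13 without the libraries lowest in Adgre1 (2 in each group), and 14 to 24 without each library in turn. The last omission and the ascending limb score were chosen after seeing the data. Whether the replicate numbers shared by 4 mutants and 4 wild types pair the libraries was not settled. Correlations of same-numbered deviations from the group means were 0.43, 0.28, 0.02 and 0.44, and only replicate 1 matched its own number best. The macrophage score also varied with the replicate number, so these correlations cannot decide the pairing. With the replicate block 217 genes were called, against 21 in the same 8 libraries without it, and Gabarapl1 had a log2 fold change of -0.65 (adjusted p = 0.173 by edgeR).

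The log2 fold changes of Sqstm1 (0.11 to 0.51), Gabarapl1 (-0.77 to -0.18), Ulk1 (-0.48 to -0.01) and Tfeb (0.07 to 0.28) kept their sign. Others, none of them called, changed sign, and the cause was not tested. With the macrophage score they were 0.15 for Map1lc3a, 0.010 for Map1lc3b and 0.027 for Atg4d, and with the ascending limb score 0.39 for Map1lc3a, 0.18 for Map1lc3b, 0.16 for Atg101, 0.21 for Atg4d and -0.23 for Tfe3. Without the low-Adgre1 libraries they were -0.027 for Gabarap, -0.21 for Gabarapl2 and -0.083 for Becn1. For Gabarapl2 they were -0.0076 with upper quartile scaling, -0.0042 with no filter, -0.013 with the replicate block, -0.017 in those 8 libraries without the block and -0.0056 for single transcripts. For Becn1 they were -0.014 with upper quartile scaling, -0.0072 with no filter and -0.0081 for single transcripts, and Vps39 had 0.10 for single transcripts. Without single libraries the ranges were -0.26 to 0.030 for Map1lc3a, -0.0084 to 0.21 for Gabarap, -0.13 to 0.12 for Gabarapl2, -0.078 to 0.052 for Becn1 and -0.025 to 0.080 for Atg5.

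In wild types alone the slopes on the macrophage score were -0.14 for Sqstm1, -0.079 for Map1lc3b, -0.13 for Gabarap, -0.094 for Gabarapl1 and -0.22 for Gabarapl2, none called, and -0.01 for Ulk1, and 1 member was called. That fit has fewer samples. Atg5 was called with upper quartile scaling (-0.091). Without single libraries 2 to 6 members were called, with slopes of -0.17 to -0.13 for Sqstm1, -0.13 to -0.089 for Map1lc3b, -0.16 to -0.12 for Gabarap, -0.19 to -0.11 for Gabarapl1, -0.13 to -0.068 for Atg5 and -0.00011 to 0.056 for Ulk1.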
